A study of Mus musculus with 17 samples.

Results

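The genes described here are 10 genes of antibody-secreting cells and of antibody transport, among 55421 rows in the count tables of colon tumors from mice with and without Tyk2. They were taken by symbol, through the Ensembl identifiers of the rows, with no threshold on their values. Igha, Ighm, Ighg1, Ighg2b and Ighg2c encode the constant parts of the heavy chains of IgA, IgM and 3 kinds of IgG. Igkc encodes the constant part of the kappa light chain. Jchain encodes the joining chain that links IgA or IgM units into polymers. Mzb1 encodes an endoplasmic reticulum cochaperone of antibody assembly. Pou2af1 encodes a coactivator that works with octamer-binding factors in B lineage cells. Pigr encodes the polymeric immunoglobulin receptor, which epithelial cells use to carry polymeric IgA and IgM into the lumen.

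Plasma cells are the end stage of the B lineage and devote most of their secretory pathway to antibody. In the colon most of them lie in the lamina propria and make IgA, which leaves the tissue only after binding the receptor on the basal side of the epithelium. Each plasma cell has joined 1 variable segment of the heavy-chain locus and 1 of a light-chain locus to its constant genes, so the variable segments read from a tissue describe which plasma cell families it holds.

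RNA was measured in tumors that azoxymethane (AOM, a carcinogen) and dextran sulfate sodium (DSS, which injures the colon lining) had induced in mice on a C57BL/6 background. The question was what the kinase Tyk2 does in tumor cells and in the stroma around them. Tyk2 relays interferon, IL12 and IL22 signals from their receptors. The germline experiment held 3 Tyk2wt libraries (Tyk2+/+) and 3 Tyk2KO libraries (Tyk2Δ/Δ, from a floxed allele deleted in the germline by a CMV-cre strain that was then crossed out). The epithelial experiment held 7 Tyk2fl libraries (Tyk2fl/fl without cre) and 4 Tyk2DIEC libraries (Tyk2fl/fl with Villin-cre, which acts in intestinal epithelium and not in plasma cells). All 4 groups had received AOM and DSS, and no label gave an age or a sex. The labels speak of single tumors, the study also of pooled tumor samples, and neither says which libraries come from the same mouse, so a p-value here measures the spread between libraries, which may be technical.

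Libraries held 19129696 to 21707373 counts in the Tyk2wt, Tyk2KO and Tyk2DIEC groups and 29777763 to 35427965 in Tyk2fl. Tyk2 itself had 1092 to 1199 counts in Tyk2wt and 1177 to 1257 in Tyk2KO, and since a gene count adds all exons, also those outside the deleted part, it is no check of the labels. Levels are given as CPM, the counts-per-million scale, adjusted by edgeR's TMM factors over the 17 libraries. The 8 epithelial marker genes summed to 7521 to 12220 CPM, so epithelial RNA was plentiful in every library. Tyk2fl replicates 1 to 3 stood apart by 40656 to 45446 counts of Xist, the X-inactivation RNA, against 2 to 106 in the other 14 libraries. The 4 Tyk2DIEC libraries held 2 to 10, so the epithelial experiment compared them with controls of high and of low Xist counts. The 9 plasma cell surface and regulator genes taken as markers (among them Sdc1, Irf4 and Prdm1) summed to 538 to 722 CPM. Most of that sum was Sdc1 (372 to 529 CPM), which epithelium also transcribes, and Cd38 (72.6 to 194 CPM), while Irf4 measured 0.559 to 3.03 CPM and Slamf7 0.564 to 2.88 CPM.

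All 5 heavy-chain genes lie on chromosome 12 of the GRCm38 mouse genome, on the minus strand: Igha at 113254830 to 113260236, Ighg2c at 113285325 to 113288932, Ighg2b at 113302965 to 113307933, Ighg1 at 113325240 to 113330523 and Ighm at 113418558 to 113422730. Igkc lies on chromosome 6 at 70726435 to 70726966, Jchain on chromosome 5 at 88519809 to 88527891, Pou2af1 on chromosome 9 at 51213708 to 51240080 and Pigr on chromosome 1 at 130826684 to 130852249. The heavy-chain genes are similar in sequence, but of all 75-base windows of their transcripts (75 bases being the read length), 0% of those of Igha, Ighm and Ighg1, 0.768% of those of Ighg2b and 0.48% of those of Ighg2c occurred in the transcript of another gene. Mzb1 had only 0 to 7 counts in any library, and 57.2% of its exon bases are shared with a readthrough gene, SPATA24, on the same strand. It failed the filter on low counts, so 9 of the 10 genes were tested.

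The ends of the coding sequences of secreted Igha and Ighm show what ties these 2 isotypes to Jchain and Pigr. Both carry a tail whose next-to-last codon, in capitals, encodes the cysteine that bonds with the joining chain, and the IgG genes lack this tail. The sequences run 5′ to 3′ on the minus strand, at chr12:113258771-113258830 for Igha and chr12:113420870-113420929 for Ighm, and stop before the stop codon:
Igha: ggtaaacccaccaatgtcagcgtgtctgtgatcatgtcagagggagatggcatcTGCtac
Ighm: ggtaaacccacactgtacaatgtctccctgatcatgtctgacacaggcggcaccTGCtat

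7 of the variable segments that stood first in 2 or more libraries are shown by the last 60 bases of their coding part. Capitals run from the last cysteine codon into the part that joins the next segment and contacts antigen. Igkv8-30, Ighv10-3 and Ighv3-6, which each stood first in 2 Tyk2DIEC libraries, are not shown. Segments of 1 family differ by few bases, so some reads cannot be told apart. Of the 75-base windows, 15.6% for Igkv1-135, 30.9% for Igkv1-117, 13.4% for Ighv1-63 and 16.2% for Ighv1-26 occur in another gene. The share is 0% for Igkv14-111, 2.56% for Igkv6-15 and 2.42% for Ighv1-64. Kappa segments lie on chromosome 6 and heavy-chain segments on the minus strand of chromosome 12. Their ends are at chr6:67610449-67610508 (plus) for Igkv1-135, chr6:68121768-68121827 (plus) for Igkv1-117, chr6:68256810-68256869 (plus) for Igkv14-111, chr6:70406469-70406528 (minus) for Igkv6-15, chr12:115495625-115495684 for Ighv1-63, chr12:114788372-114788431 for Ighv1-26 and chr12:115507545-115507604 for Ighv1-64:
Igkv1-135: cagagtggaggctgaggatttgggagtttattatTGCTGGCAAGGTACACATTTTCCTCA
Igkv1-117: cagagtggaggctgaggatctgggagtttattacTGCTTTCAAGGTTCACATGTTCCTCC
Igkv14-111: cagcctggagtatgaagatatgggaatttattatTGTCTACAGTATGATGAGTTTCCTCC
Igkv6-15: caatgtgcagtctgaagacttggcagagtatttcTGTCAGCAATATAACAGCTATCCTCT
Ighv1-63: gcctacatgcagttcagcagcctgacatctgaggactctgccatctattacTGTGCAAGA
Ighv1-26: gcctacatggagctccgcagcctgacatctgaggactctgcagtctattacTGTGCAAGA
Ighv1-64: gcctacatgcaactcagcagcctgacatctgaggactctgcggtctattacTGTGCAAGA

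IgA dominated the antibody RNA of every tumor library. As CPM of the library total divided by exon length in kilobases, Igkc (median 364.5 over the 17 libraries), Pigr (260.2) and Igha (142.8) stood highest, followed by Jchain (32.6), Ighm (2.41), Ighg1 (0.842), Ighg2b (0.761), Pou2af1 (0.491) and Ighg2c (0.419). Within the 8 heavy-chain constant genes, Igha took 78.6% to 98.6% of the counts, with a median of 96.8%. As CPM of the library total, Igha ranged 62.4-fold and Pigr 2.01-fold over all 17 libraries. In TMM-adjusted CPM, used from here on, Igha ranged within a genotype 1.77-fold in Tyk2wt, 3.20-fold in Tyk2KO, 7.18-fold in Tyk2fl and 42.4-fold in Tyk2DIEC.

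**Figure D1:**
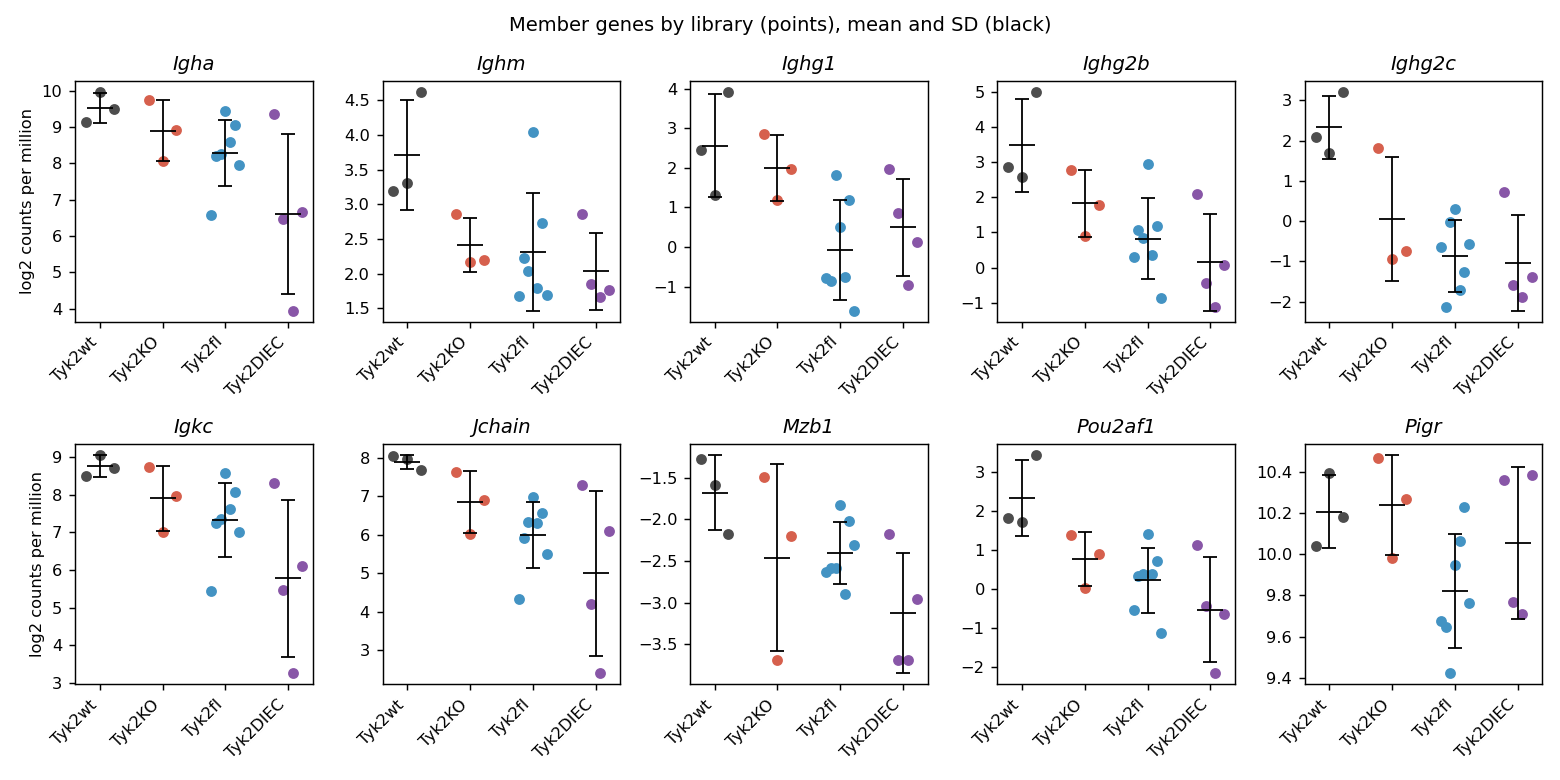
Levels of the 10 genes in each library (points, in log2 CPM, replicates in order from left to right) with the mean and the standard deviation of each group (black); each panel has its own scale. Igha, Igkc and Jchain spread over several log2 units within Tyk2DIEC, whose replicate 1 is high, while Pigr spans about 1 log2 unit over all 17 libraries.

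Igha, the IgA heavy chain, measured 563, 999 and 717 CPM in Tyk2wt replicates 1 to 3 and 850, 266 and 481 CPM in Tyk2KO replicates 1 to 3. The groups overlapped, since Tyk2KO replicate 1 lay above 2 of the 3 Tyk2wt libraries. In Tyk2fl it ranged from 96.3 to 691 CPM with a median of 308, and in Tyk2DIEC it measured 651, 88.9, 15.4 and 101 CPM in replicates 1 to 4. Within Tyk2DIEC the highest library thus held 42.4 times the level of the lowest, and replicates 2 and 3 lay below the whole Tyk2fl range.

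Igkc, the kappa light chain, measured 361, 534 and 421 CPM in Tyk2wt and 426, 130 and 248 CPM in Tyk2KO. It ranged from 43.1 to 383 CPM in Tyk2fl, with a median of 162, and measured 317, 43.9, 9.44 and 68.4 CPM in Tyk2DIEC. The ratio of Igkc to Igha counts stayed between 0.448 and 0.679 in all 17 libraries, a range of 1.52-fold.

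Jchain measured 264, 250 and 207 CPM in Tyk2wt and 197, 64.5 and 119 CPM in Tyk2KO. All 3 Tyk2KO libraries lay below all 3 Tyk2wt libraries, although Tyk2KO replicate 1 was close to Tyk2wt replicate 3. In Tyk2fl it ranged from 20.2 to 127 CPM with a median of 79.8, and in Tyk2DIEC it measured 157, 18.4, 5.20 and 68.5 CPM. Its ratio to Igha counts was more uneven than that of Igkc, at 0.18 to 0.68, with the highest values in Tyk2DIEC replicate 4 (0.68) and Tyk2wt replicate 1 (0.469).

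Ighm, the heavy chain of IgM, which naive B cells also transcribe, measured 9.06, 9.86 and 24.5 CPM in Tyk2wt and 7.17, 4.42 and 4.51 CPM in Tyk2KO, with no overlap. It ranged from 3.12 to 16.4 CPM in Tyk2fl, with a median of 4.01, and measured 7.17, 3.53, 3.08 and 3.30 CPM in Tyk2DIEC. Pou2af1, the B lineage coactivator, measured 3.45, 3.18 and 10.8 CPM in Tyk2wt and 2.54, 0.943 and 1.79 CPM in Tyk2KO, again with no overlap. In Tyk2fl it ranged from 0.376 to 2.56 CPM with a median of 1.22, and in Tyk2DIEC from 0.144 to 2.10 CPM with a median of 0.612.

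The IgG genes were low throughout. Ighg2b measured 7.14, 5.96 and 32.0 CPM in Tyk2wt and 6.85, 1.79 and 3.38 CPM in Tyk2KO. Ighg2c measured 4.17, 3.13 and 9.15 CPM in Tyk2wt and 3.47, 0.447 and 0.517 CPM in Tyk2KO. Ighg1 measured 5.37, 2.41 and 15 CPM in Tyk2wt and 7.17, 2.18 and 3.81 CPM in Tyk2KO. Tyk2wt replicate 3 was the highest of the 6 libraries for all 3 IgG genes, Ighm and Pou2af1, but not for Igha, Igkc or Jchain. In the epithelial experiment the highest IgG library was at most 7.67 CPM (Ighg2b in Tyk2fl replicate 4).

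Pigr, the epithelial transporter, was the steadiest of the 10 genes. It measured 1054, 1345 and 1161 CPM in Tyk2wt, 1415, 1012 and 1233 CPM in Tyk2KO, 686 to 1201 CPM in Tyk2fl with a median of 868, and 1315, 871, 836 and 1335 CPM in Tyk2DIEC. All 4 groups overlapped. In Tyk2DIEC replicate 3, where Igha was at its lowest, Pigr was at 836 CPM.

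In the germline experiment, which asks what loss of Tyk2 in the whole mouse does to the tumor, 8 of the 9 tested genes had lower estimates in Tyk2KO and Pigr a flat one, but none passed the test. By edgeR's quasi-likelihood test with Benjamini-Hochberg adjustment over all 16179 genes tested, 0 of 9 were called at an adjusted p under 0.05 and more than 2-fold, where 1.3% of all genes were. The log2 fold change was -1.43 ± 0.40 (SE) for Ighm (adjusted p = 0.0955), -1.72 ± 0.54 for Pou2af1 (0.119), -0.92 ± 0.34 for Jchain (0.158), -1.90 ± 0.71 for Ighg2b (0.166) and -1.88 ± 0.73 for Ighg2c (0.18). It was -0.71 ± 0.37 for Igkc, -0.52 ± 0.38 for Igha, -0.79 ± 0.64 for Ighg1 and 0.04 ± 0.14 for Pigr, with adjusted p-values of 0.289 to 0.903. The median over the 9 genes was -0.92, beside 0.00 (0.004) over all genes tested.

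The count of calls depended on the tool. Without adjustment 5 of the 9 genes had a p under 0.05, as had 3681 of the 16179 genes. DESeq2 called Ighm (adjusted p = 0.00305) and Pou2af1 (0.0134) lower, where it called 1.83% of all genes. limma voom called 0 of 9. Without a filter on low counts edgeR called the same 2 genes (adjusted p = 0.0176 and 0.0349, 1.23% of all genes called), and without Tyk2KO replicate 1 it called Ighg2c alone (adjusted p = 0.0403, 0.863% of all genes called). Ighm, Jchain and Pou2af1 were the 3 of 9 genes whose groups did not overlap, a share near the 28.7% of all tested genes for which that was so.

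**Figure D2:**
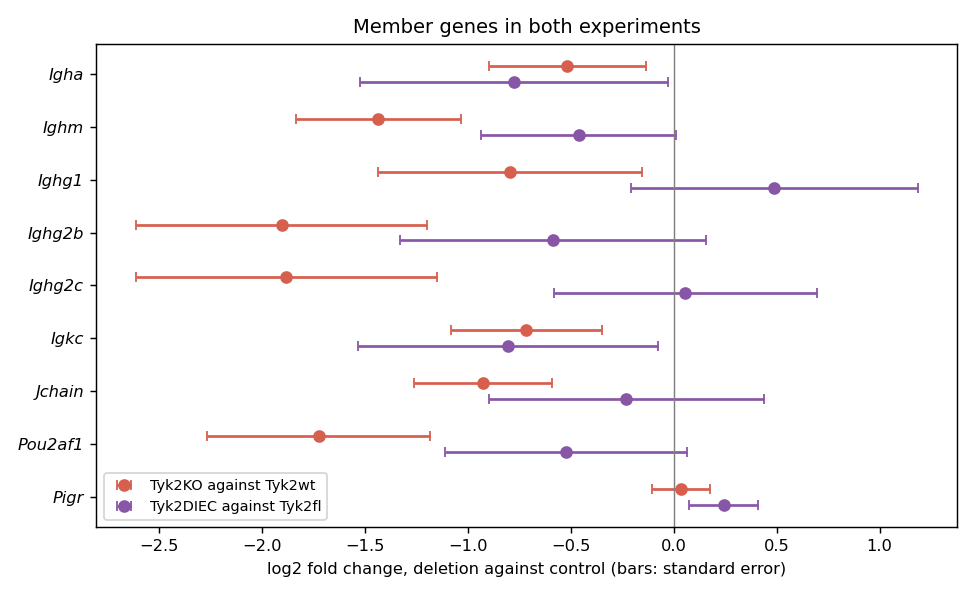
Log2 fold change of the 9 tested genes in Tyk2KO against Tyk2wt (red) and in Tyk2DIEC against Tyk2fl (purple), from edgeR, with standard errors as bars and a line at 0. The estimates of Ighm, Ighg2b, Ighg2c and Pou2af1 lie between -1.43 and -1.90 in the germline experiment, and Pigr lies at 0.04 and 0.24.

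Levels of other lymphocyte markers stand beside these values. The 14 B cell markers summed to 26.1, 24.2 and 113 CPM in Tyk2wt and to 9.58 to 10.8 CPM in Tyk2KO, with the highest sum in Tyk2wt replicate 3. Only 8 of the 14 passed the filter on low counts, some of them only through Tyk2wt. Pax5, for example, measured 0.513 to 7.70 CPM in Tyk2wt and 0 to 0.231 CPM in Tyk2KO. The median log2 fold change of these 8 was -2.57, a value that this selection lowers. Of the 8, 0 were called (Spib -3.86 ± 0.84, adjusted p = 0.0569, and Cd79b -3.15 ± 0.73, adjusted p = 0.0648). Without Tyk2wt replicate 3 the estimates were -0.82 for Ighm, -0.91 for Pou2af1 and -0.71 for Ighg2b. Of 6 T cell markers, 4 were called lower in Tyk2KO, where 1.3% of all genes were called: Cd8a (-3.35 ± 0.55, adjusted p = 0.0231), Cd3e (-1.58 ± 0.27), Cd3g (-1.41 ± 0.26) and Trac (-1.23 ± 0.19). In whole tumors fewer cells of a type and less RNA per cell cannot be told apart, and the part of B cells in the values of Ighm and Pou2af1 was not tested.

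In the epithelial experiment, which asks what loss of Tyk2 in epithelial cells alone does, 0 of 9 genes were called by edgeR, DESeq2 or limma voom, where edgeR called 3.12% of 17668 genes, and 0 of 9 had an unadjusted p under 0.05. The groups overlapped for all 9, whereas 15.5% of all tested genes had groups that did not. The log2 fold changes were -0.78 ± 0.75 for Igha (adjusted p = 0.501), -0.80 ± 0.73 for Igkc (0.469), -0.23 ± 0.67 for Jchain (0.844), -0.46 ± 0.47 for Ighm (0.528) and 0.24 ± 0.17 for Pigr (0.333). For Ighg1, Ighg2b, Ighg2c and Pou2af1 they lay between -0.59 and 0.49, with adjusted p-values of 0.569 to 0.961. The standard error of Igha was thus about as large as its estimate.

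Tyk2DIEC replicate 1 decided the outcome for IgA. Without it Igha was lower by -2.42 on the log2 scale (adjusted p = 0.0274) and Igkc by -2.24 (adjusted p = 0.0396), and these 2 of 9 genes were called beside 3.12% of all genes. The other member estimates without it were -1.81 for Ighg2b, -1.46 for Pou2af1, -1.26 for Jchain and -1.16 for Ighg2c, none of them called. This library also held the most smooth muscle RNA, with 1065 CPM over 5 genes against 130 to 166 CPM in Tyk2DIEC replicates 2 to 4, and 17.7 CPM of B cell markers against 8.09 to 10.6. Their part in the result was not tested.

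The changes in the 2 experiments did not differ by test. In a fit of all 17 libraries, 0 of 9 genes passed at an adjusted p under 0.05 for the difference between the germline and the epithelial change, where 7.96% of 17252 genes passed, and 0 of 9 had an unadjusted p under 0.05. DESeq2 and limma voom also passed 0 of 9. The largest difference was that of Ighg2c, at -1.94 ± 1.08 (adjusted p = 0.288), and that of Igha was 0.25 ± 1.09 (adjusted p = 0.918). With errors of this size the 2 changes were not shown to be alike.

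Over the 4 genotypes, the mean log2 levels of Igha, Ighm, Ighg2b, Ighg2c, Igkc, Jchain and Pou2af1 fell in the order Tyk2wt, Tyk2KO, Tyk2fl, Tyk2DIEC. Ighg1 had Tyk2DIEC above Tyk2fl, and Pigr ran from Tyk2KO through Tyk2wt and Tyk2DIEC to Tyk2fl. None of the 27 neighbouring pairs of the 9 genes differed at an adjusted p under 0.05, where 2.67% (Tyk2KO and Tyk2wt), 12.4% (Tyk2fl and Tyk2KO), 25.6% (Tyk2DIEC and Tyk2fl), 2.17% (Tyk2DIEC and Tyk2KO) and 2.96% (Tyk2DIEC and Tyk2wt) of all genes did. Between groups further apart, Ighg1 (-2.61 ± 0.69), Ighg2b (-2.68 ± 0.71), Ighg2c (-3.28 ± 0.64) and Pou2af1 (-2.22 ± 0.54) were lower in Tyk2fl than in Tyk2wt, with adjusted p-values of 0.005 to 0.0222, where 12.9% of all genes differed and 7.37% were lower. Ighg2c and Pou2af1 were also lower in Tyk2DIEC than in Tyk2wt (adjusted p = 0.0407 each, 1.7% of all genes lower). Tyk2wt replicate 3 was the highest Tyk2wt library for all of these genes. Ighg2b, for example, measured 32.0 CPM there and 7.14 and 5.96 CPM in replicates 1 and 2. These pairs were not tested without that library. Tyk2fl and Tyk2wt both carry working Tyk2 and come from separate experiments, which cannot be told apart from genotype here.

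The spread within a genotype was compared with that of all genes. The standard deviation of log2 CPM of Igha was 0.41 in Tyk2wt, 0.84 in Tyk2KO, 0.91 in Tyk2fl and 2.21 in Tyk2DIEC, beside a median over all kept genes of 0.15, 0.12, 0.22 and 0.15. In Tyk2DIEC, 99.8% of genes varied less than Igha, 99.8% less than Jchain and 99.7% less than Igkc. Jchain was even in Tyk2wt, where its standard deviation of 0.18 exceeded that of only 58.1% of genes. For Pigr the standard deviation was 0.18 to 0.37, and 56.6% to 80.2% of genes varied less.

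Igha took 95.3%, 97.8% and 88.4% of heavy-chain counts in Tyk2wt replicates 1 to 3 and 97.1%, 96.7% and 97.4% in Tyk2KO. In Tyk2fl its share ranged from 94.5% to 98.6% with a median of 97.4%, and in Tyk2DIEC it was 97.4%, 93.4%, 78.6% and 94.6%. The 95% Wilson interval of any 1 share reached at most 3.98 points to either side, in Tyk2DIEC replicate 3 with only 406 heavy-chain counts, and it covers counting error only, since the reads carry no molecular identifiers.

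Tyk2DIEC replicate 3 gave 15.8% of its heavy-chain counts to Ighm, from 64 counts, at an Ighm level of 3.08 CPM that was close to those of replicates 2 and 4, while its Igha was the lowest of all libraries. Tyk2wt replicate 3 gave 7.01% to the 4 IgG genes together and 1.55% to Ighd, the IgD heavy chain of naive B cells, where the other 16 libraries held at most 5.17% IgG. It was also the library with the highest sum of B cell markers.

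**Figure D3:**
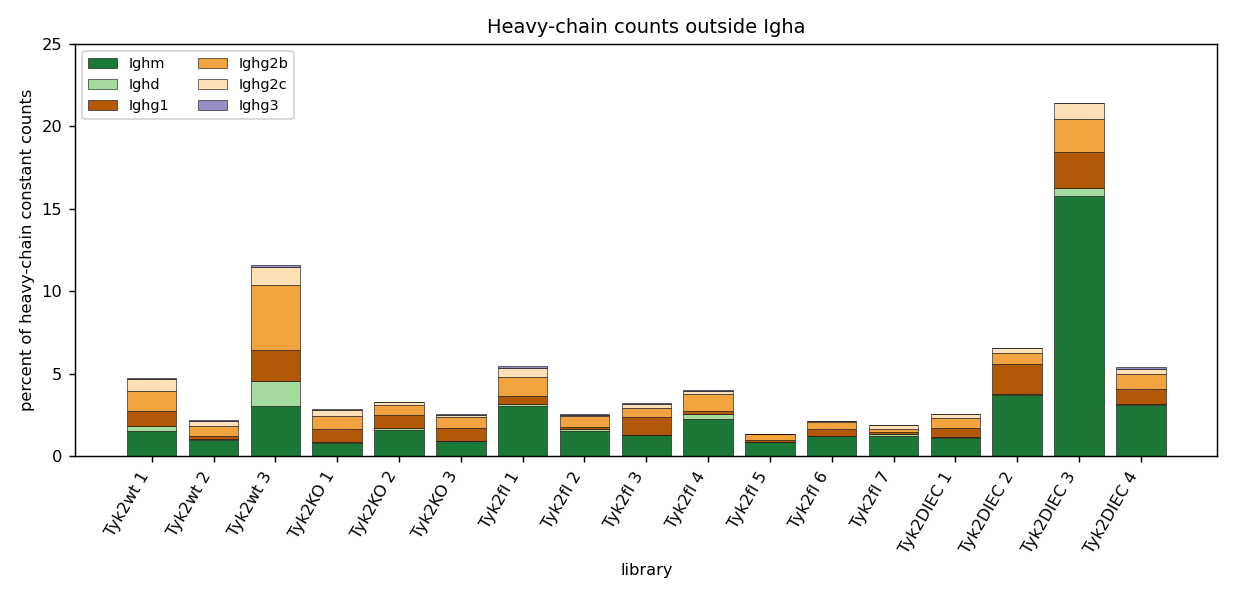
Share of all heavy-chain constant counts that fell outside Igha in each of the 17 libraries, stacked by gene (Ighm, Ighd and the 4 IgG genes), in percent. The bars are tallest in Tyk2DIEC replicate 3, where Igha held 78.6% and Ighm 15.8%, and in Tyk2wt replicate 3, where Igha held 88.4%, and Igha held at least 93.4% in the other 15 libraries.

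By an exact two-sided permutation test over libraries, none of the 10 comparisons of an isotype share passed after Benjamini-Hochberg adjustment over the 10. The mean Igha share was 97.1% ± 0.388 (SD, n = 3) in Tyk2KO and 93.8% ± 4.86 (n = 3) in Tyk2wt (exact p = 0.4, where 3 against 3 cannot go below 0.1). It was 91.0% ± 8.45 (n = 4) in Tyk2DIEC and 97.0% ± 1.42 (n = 7) in Tyk2fl (exact p = 0.0545, adjusted p = 0.263), a gap of -6.04 points that shrank to -1.89 without Tyk2DIEC replicate 3. The Ighg1 share was 1.39% ± 0.76 in Tyk2DIEC and 0.367% ± 0.353 in Tyk2fl (exact p = 0.0242, adjusted p = 0.242), with overlapping ranges.

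The light chains divided the Tyk2fl libraries. The lambda constant genes (Iglc1, Iglc2 and Iglc3) took 16.5%, 13.6% and 10.9% of light-chain constant counts in Tyk2fl replicates 1 to 3, 5.89% in replicate 4 and 4.26%, 4.37% and 2.48% in replicates 5 to 7. In the other 10 libraries the share lay between 6.35% and 12.9%. None of the 3 lambda genes was called in either experiment, and the lowest adjusted p was that of Iglc3 in Tyk2KO (-1.88 ± 0.41, adjusted p = 0.0536).

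The leading variable segments differed between sets of libraries. Over 160 Igkv rows, the most used kappa segment was Igkv1-135 in all 3 Tyk2wt libraries (9.9%, 30.9% and 14.8% of Igkv counts), Igkv1-117 in all 3 Tyk2KO libraries (8.4%, 8.86% and 9.96%), Igkv14-111 in Tyk2fl replicates 1 to 3 (9.23%, 12% and 10.6%) and Igkv6-15 in Tyk2fl replicates 5 to 7 (21.0%, 23.2% and 15.7%). Igkv6-15 took at most 5.16% in any other library and Igkv14-111 at most 4.45%. Tyk2fl replicate 4 had its own leading segment, Igkv1-133, at 12.2%, against at most 4.35% elsewhere. The 4 Tyk2DIEC libraries had 3 different leading segments, Igkv16-104, Igkv8-30 (in replicates 2 and 4) and Igkv10-96, at 8.3% to 12%.

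The heavy-chain segments followed these sets only in part, over 185 Ighv rows. Tyk2fl replicates 1 to 3 had different leaders, Ighv7-3, Ighv1-22 and Ighv1-26. Ighv6-3 led in Tyk2fl replicate 4, Ighv1-64 in replicates 5 and 6 and Ighv5-16 in replicate 7. Ighv5-12 led in Tyk2wt replicate 1 and Ighv1-63 in replicates 2 and 3. In Tyk2DIEC, Ighv10-3 led in replicates 1 and 2 and Ighv3-6 in replicate 4. In Tyk2DIEC replicate 3, Ighv3-6 and Ighv1-26 had 5 of 35 counts each. Ighv1-26 led in all 3 Tyk2KO libraries, at 9.54%, 12.3% and 12%, and took at most 8.63% elsewhere except for 5 of 35 counts in Tyk2DIEC replicate 3. Ighv1-63 took 26.7% of Ighv counts in Tyk2wt replicate 2, 10.8% in replicate 3 and 3.44% in replicate 1, against at most 1.49% in any other library and 0 counts in 9 of the 14. Ighv1-64 took 9.0% to 14.7% in Tyk2fl replicates 4 to 7 and 1.7% to 2.58% in replicates 1 to 3. Of the segments shown, Igkv6-15, Igkv1-135, Igkv1-117, Ighv1-64 and Ighv1-26 were named for their high mean share, and the others were picked after their values were seen.

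The Morisita-Horn overlap, which is 1 for equal segment shares and 0 for none in common, put numbers on these sets. For Igkv it was 0.874 to 0.966 among the Tyk2KO libraries, 0.883 to 0.931 within Tyk2fl replicates 1 to 3, 0.886 to 0.977 within replicates 5 to 7 and 0.642 to 0.922 among Tyk2wt. Between the sets of Tyk2fl it was 0.437 to 0.618, no higher than the 0.237 to 0.806 found for pairs of different genotypes. Among the Tyk2DIEC libraries it was 0.465 to 0.786, where replicate 3 rested on 46 Igkv counts and replicate 2 on 155. For Ighv the values were 0.92 to 0.962 in Tyk2KO, 0.811 to 0.875 and 0.676 to 0.936 in the same sets of Tyk2fl, and 0.354 to 0.678 between those sets. All 6 germline libraries were nearest to a library of their own genotype by both loci, as were 7 of 7 Tyk2fl libraries by Ighv and 6 of 7 by Igkv. Of the 4 Tyk2DIEC libraries 2 were by Ighv and 3 by Igkv. These sets were read from the data and are not groups of the study, and what the libraries in a set share was not tested. Tyk2fl replicates 1 to 3 were also the libraries with high Xist counts.

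**Figure D4:**
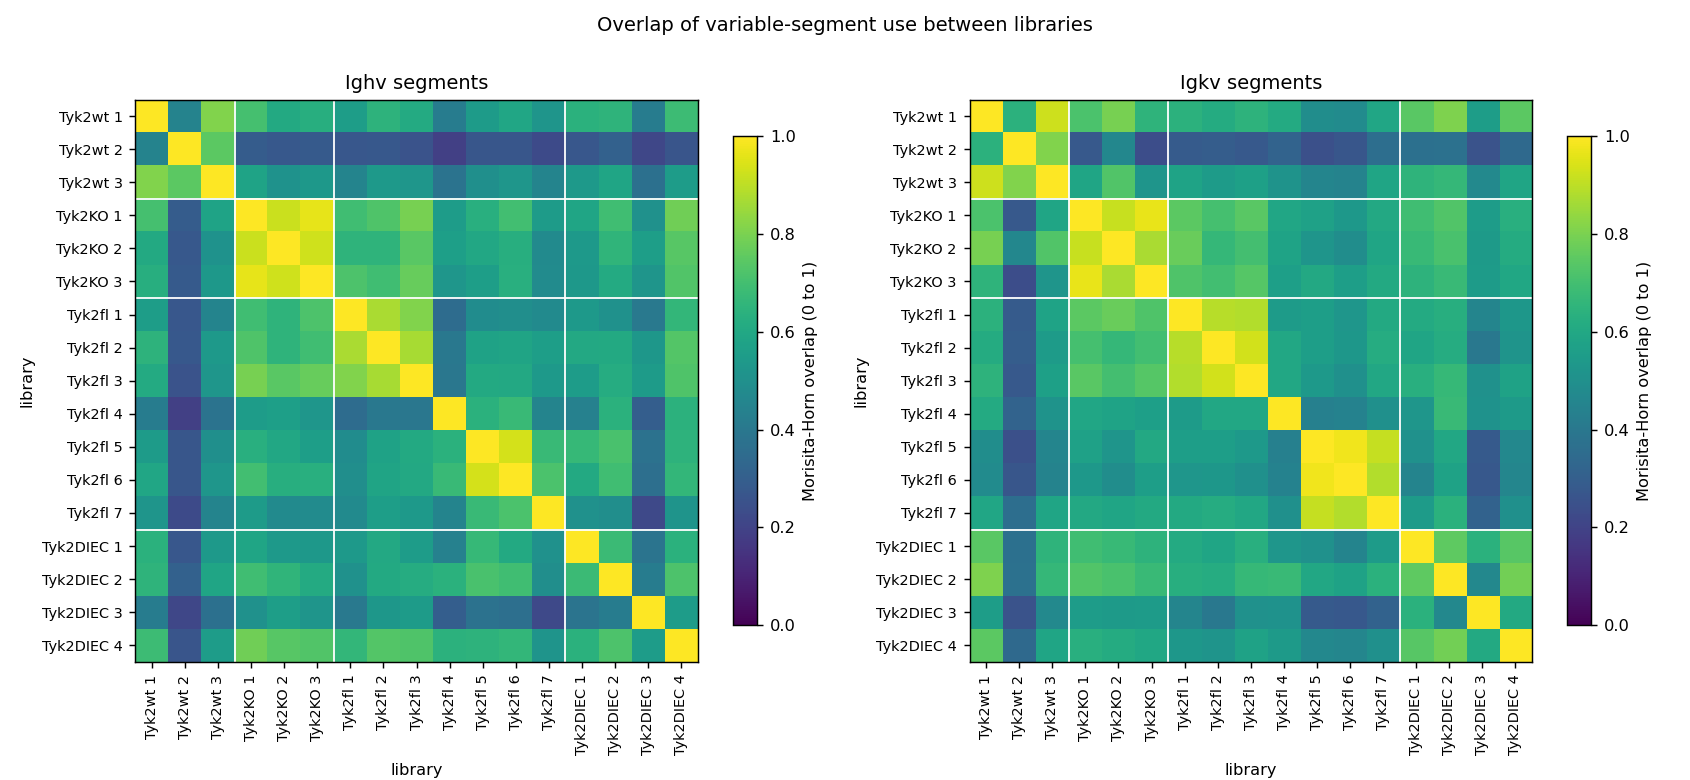
Morisita-Horn overlap of variable-segment shares for every pair of the 17 libraries, for Ighv segments (left) and Igkv segments (right), on a colour scale from 0 to 1, with white lines between genotypes. Bright blocks mark the 3 Tyk2KO libraries, Tyk2fl replicates 1 to 3 and Tyk2fl replicates 5 to 7, and Tyk2wt replicate 2 is dark against nearly all libraries outside its genotype.

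No comparison of segment diversity passed after adjustment over the 8 tests, the lowest adjusted p being 0.4. The inverse Simpson number, the count of equally used segments that would give the same concentration, was 32.5 ± 2.64 (n = 3) for Igkv in Tyk2KO and 19.9 ± 10.1 (n = 3) in Tyk2wt. All 3 Tyk2KO libraries lay above all 3 Tyk2wt libraries, and the exact permutation p was 0.1, the smallest this design allows. It was 23.6 ± 2.75 (n = 4) in Tyk2DIEC and 20.8 ± 4.43 (n = 7) in Tyk2fl (exact permutation p = 0.339). With every library thinned to 46 Igkv counts the gap was 2.92 (unadjusted exact permutation p = 0.0121). The thinned numbers were 11.8 to 15.6 in Tyk2fl replicates 5 to 7, whose segment use was alike. The test counts these as separate libraries, so its p-value may be too small. For Ighv the inverse Simpson number was 24.2 ± 3.33 and 27.3 ± 14.3 in Tyk2KO and Tyk2wt, and 25.7 ± 9.12 and 23 ± 4.79 in Tyk2DIEC and Tyk2fl, with exact permutation p-values of 0.7 and 0.564. The lowest values were those of Tyk2wt replicate 2, at 8.85 for Igkv and 11.4 for Ighv. Tyk2wt replicate 2 was also the library with the most Igha, at 999 CPM.

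Jchain tracked the other products of plasma cells. Over the 17 libraries, with each gene centred on the mean of its genotype, its log2 CPM had a Pearson correlation of 0.96 with Igkc (Spearman 0.93) and 0.94 with Igha (Spearman 0.88), against 0.58 with Ighg1, 0.67 with Ighg2b, 0.52 with Ighm and 0.51 with Ighg2c. Without Tyk2DIEC replicates 1 and 3, the libraries farthest from the median, the first 2 were 0.91 and 0.85. The libraries share depth and tissue make-up, so these values are descriptions.

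Outside the antibody loci, the 8 genes most like Jchain were Acp5 (0.89), Pdzd3 (0.89), C2cd4a (0.88), Slc39a5 (0.88), Gstk1 (0.85), 2610528A11Rik (0.85), Fhl1 (0.85) and Cyp4f40 (0.83), by the same correlation. These values were picked as the highest over all kept genes. Without Tyk2DIEC replicates 1 and 3 they lay between 0.71 (Gstk1) and 0.83 (Fhl1). Pigr had a correlation of 0.7 with Jchain and 0.68 with Igha. The 8 genes most like Pigr were Plcl2 (0.88), Pdzd3 (0.86), Gm15848 (0.85), Cyp4f40 (0.84), Tnfsf13os (0.84), Cyp2c68 (0.84), Gm38560 (0.83) and Ces2g (0.83). Pdzd3, a scaffold protein of the epithelial brush border, and Cyp4f40, a cytochrome P450, stood in both lists.

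**Figure D5:**
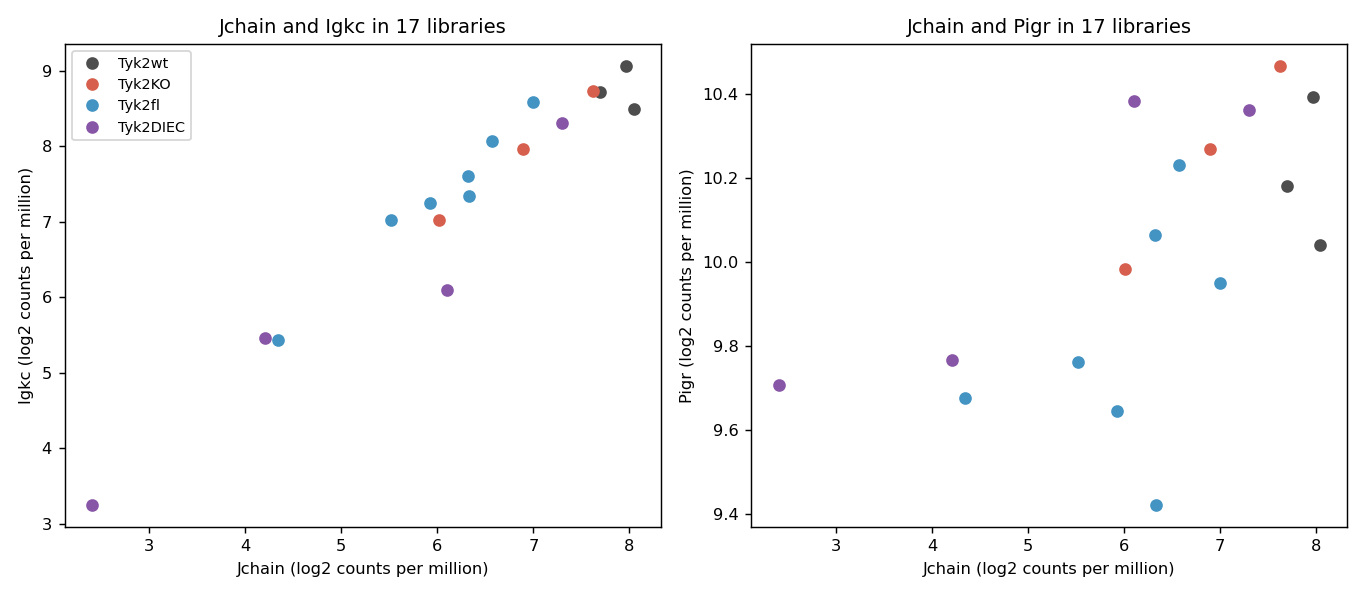
Jchain level (x axis) against Igkc (left) and Pigr (right) in the 17 libraries, in log2 CPM, coloured by genotype. Igkc climbs with Jchain over more than 5 log2 units, whereas Pigr stays within about 1 log2 unit.

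Few genes that bring plasma cells to the gut and keep them there were called. Of 22 genes of IgA induction, homing and survival, 15 were tested in each experiment. None was called in Tyk2KO, where Tnfsf13b, which encodes the survival factor BAFF, had -0.78 ± 0.14 (adjusted p = 0.0355) without reaching 2-fold, as 1 gene of 15 passing on p alone beside 2.8% of all genes. In Tyk2DIEC, Madcam1, the vascular address protein for gut-homing lymphocytes, was called lower (-1.74 ± 0.42, adjusted p = 0.0149). It was 1 called gene of 15, beside 3.12% of all genes. Tnfrsf13b, which encodes the receptor TACI (-0.77 ± 0.21, adjusted p = 0.025), and Tgfb1, which promotes the switch to IgA (-0.30 ± 0.08, adjusted p = 0.0194), passed on p alone. With Madcam1, 3 of 15 genes thus had an adjusted p under 0.05, a share near the 19.9% of all genes. The medians of the list were -0.45 and -0.30.

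Of 10 receptors for immunoglobulin, 6 were tested in the germline experiment and 7 in the epithelial one. Fcgr4, an activating IgG receptor of myeloid cells, was called lower in Tyk2KO (-1.46 ± 0.17, adjusted p = 0.00531), as 1 of 6 beside 1.3% of all genes. Fcgr4 had -0.20 ± 0.23 in Tyk2DIEC (adjusted p = 0.576), and its change differed between the experiments (-1.26 ± 0.34, adjusted p = 0.0337). Fcgr3 had -0.66 ± 0.13 in Tyk2KO (adjusted p = 0.0461) and -0.53 ± 0.15 in Tyk2DIEC (adjusted p = 0.0305), under 2-fold in both. Fcgr2b, the inhibitory IgG receptor, had -0.50 ± 0.10 (adjusted p = 0.00677) and Fcer1g, the signalling subunit of the activating receptors, -0.61 ± 0.14 (adjusted p = 0.0126) in Tyk2DIEC. On p alone 2 of 6 receptors passed in Tyk2KO, beside 2.8% of all genes, and 3 of 7 in Tyk2DIEC, beside 19.9%. For the difference 1 of 8 passed, beside 7.96% of all genes. The 5 macrophage markers had medians of -0.18 and -0.26.

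The 13 genes of the secretory apparatus were all tested, with 0 called in either experiment. In Tyk2DIEC, 5 of 13 passed on p alone, beside 19.9% of all genes. Each changed by less than 2-fold, among them Fkbp11 (-0.80 ± 0.17, adjusted p = 0.00867) and Edem2 (-0.47 ± 0.05, adjusted p = 0.000371). Edem2 takes part in the disposal of misfolded glycoproteins. It was the 1 gene of the list whose change differed between the experiments (0.65 ± 0.08, adjusted p = 8.89e-05), beside 7.96% of all genes. Among 9 plasma cell markers, 7 were tested and 0 called. Prdm1, a regulator of plasma cells that epithelial and T cells also use, had 0.73 ± 0.18 in Tyk2DIEC (adjusted p = 0.0166) and -0.33 ± 0.10 in Tyk2KO (adjusted p = 0.113), and this change differed between the experiments (-1.05 ± 0.27, adjusted p = 0.025). Of 8 germinal centre and follicle genes 5 were tested and 0 called, with Clu at -0.92 ± 0.28 in Tyk2DIEC (adjusted p = 0.0371). The 8 epithelial markers had 0 called and medians of -0.04 and 0.04. Smooth muscle genes differed, since Des (-2.73 ± 0.54), Cnn1 (-2.45 ± 0.42) and Tagln (-1.25 ± 0.22) were 3 of 5 called lower in Tyk2KO, with adjusted p-values of 0.0265 to 0.0419. In that comparison 1.3% of all genes were called.

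Start-site sequence was at hand for 3 of the 10 genes (RefSeq, GRCm38.p6, 250 bases before and 50 after the start). The octamer ATGCAAAT, searched on both strands and found in 1.74% of 32851 such windows, was in none of the Jchain, Pou2af1 and Pigr windows. Its core TGCAAAT, part of the former and found in 4.02%, stood 231 bases before the start in that of Pou2af1. TTCNNNGAA, the form bound by STAT factors downstream of kinases such as Tyk2, found in 8.3% of windows, stood 39 bases after the start in that of Pigr, and the interferon-response type motif (a pair of GAAA runs with 2 bases between them), searched the same way and found in 3.44%, in none. Both stretches are given 5′ to 3′ on the plus strand with the motif in capitals, Pou2af1 at chr9:51213440-51213499 and Pigr at chr1:130826704-130826733. A match is a run of letters, not a measured binding site:
Pou2af1: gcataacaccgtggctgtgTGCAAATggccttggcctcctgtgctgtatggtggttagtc
Pigr: aatagtcaccagtagtgccTTCCTGGAAgc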

How the data were processed

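RNA from 17 tumor libraries of 4 genotypes was sequenced by the authors as poly(A)-selected, directional, single-end reads of 75 bases. The authors aligned them with STAR 2.6.1a to GRCm38 (the submitters' processing notes; the study's methods name a human build for the same step) and deposited raw counts of reads per gene, in 1 table per experiment and in 17 single-library tables that held identical values. Of 55421 rows, 55154 were given a symbol through their Ensembl identifiers, and unnamed rows held 0.0531% of counts. Total counts per library set the precision, and Wilson 95% intervals cover counting error only.

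Counts were tested with edgeR 4.0.16 (R 4.3.3): filterByExpr (minimum count 10, minimum total 15), TMM scaling, and the quasi-likelihood test with Benjamini-Hochberg adjustment over all genes. A gene was called at an adjusted p under 0.05 and over 2-fold, and for the difference between experiments, in 1 fit of 17 libraries, at an adjusted p under 0.05. log2 CPM used a prior count of 2. Isotype shares and segment diversity were compared by exact two-sided permutation over libraries (scipy 1.17.1), with adjustment over 10 and 8 tests. The count tests of Tyk2KO against Tyk2wt and of Tyk2DIEC against Tyk2fl were checked on simulated data. Those of the difference and of pairs in the fit of 17 libraries were not. Sequences came from GENCODE transcripts and RefSeq start-site windows of the same build. The per-kilobase values used the union of exons.

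The named genes were the 10 members, up to 4 genes with the smallest adjusted p from each list, the 8 genes most like Jchain and like Pigr, and the 3 most abundant Ighv and Igkv segments. The members and lists were chosen with earlier results of these data known. Alternatives were DESeq2 1.42.0, limma 3.58.1 voom, other scalings, filters, denominators and diversity measures, a replicate block, and leaving out each library. Same-numbered libraries were not paired by any label, and their deviations correlated at -0.39 to 0.08.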

Additional observations from a re-analysis of the deposited data

Results flagged for a closer look

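In groups of 4 to 10 libraries, 40 series of values were checked for a single library far from the rest by Dixon's 95% criterion, and 10 were past it. The rate of about 1 in 20 holds for unrelated series of normally spread values. These series come from the same libraries and from genes that vary together, so that rate is no yardstick for the 10. Tyk2DIEC replicate 1 stood above the other 3 Tyk2DIEC libraries for Igha (651 CPM), Ighm (7.17 CPM), Ighg2b (4.21 CPM) and Ighg2c (1.58 CPM). Tyk2fl replicate 4 stood above the other 6 Tyk2fl libraries for Ighm (16.4 CPM) and Ighg2b (7.67 CPM), and its B cell markers summed to 25.5 CPM against at most 15.9 CPM in the others. Tyk2fl replicate 3 had the highest Ighg1 share of its group, at 1.09% of heavy-chain counts.

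Tyk2DIEC replicate 3, with 406 heavy-chain and 35 Ighv counts, had a high Ighg2c share (0.985%, from 4 counts), a low Ighv inverse Simpson number (12.1) and a high share of its leading Ighv segment (14.3%, from 5 counts). Thinned to 35 counts, the other Tyk2DIEC libraries had inverse Simpson numbers of 17.3 to 19.3. The part of depth in these values was not tested further.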

How the results depend on the processing

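Leaving out 1 library at a time gave 0 to 1 called members in Tyk2KO, 0 to 2 in Tyk2DIEC and 0 for the difference. For the gene lists it gave 1 to 21, 0 to 2 and 2 to 8 calls, beside 8, 1 and 5 with all libraries. With all libraries 1.3%, 3.12% and 7.96% of all genes were called. The gap in Igha share ranged from 0.544 to 5.25 points in the germline and from -8.18 to -1.89 points in the epithelial experiment, and that in Igkv inverse Simpson number from 7.02 to 16.9 and from 1.65 to 4.12. Estimates that turned direction were those of Ighg1 (-1.35 to 0.17) and Pigr (-0.086 to 0.16) in Tyk2KO, of Ighm (-0.84 to 0.048), Ighg1 (-0.24 to 1.00), Ighg2b (-1.81 to 0.10), Ighg2c (-1.16 to 0.34) and Jchain (-1.26 to 0.14) in Tyk2DIEC, and of Igha (-0.24 to 1.92), Igkc (-0.40 to 1.54) and Jchain (-1.15 to 0.35) for the difference. In the germline experiment so did the Ighg1 share (-0.585 to 0.223 points), the Ighv inverse Simpson number (-11.1 to 2.80) and the leading Ighv share (-7.50 to 3.19 points).

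DESeq2 called 2 members and 20 list genes in Tyk2KO (1.83% of all genes) and 9 list genes for the difference. No filter on low counts gave 2 and 26 in Tyk2KO (1.23% of all genes). With Tyk2fl replicates 4 to 7, which had low Xist counts, as the only controls, no member was called in Tyk2DIEC. The lists then had 2 calls in Tyk2DIEC and 8 for the difference. With no fold minimum they had 14 in Tyk2DIEC, where 19.9% of all genes passed. With Tyk2fl replicates 1 to 3 and 5 to 7 summed, chosen after seeing the data, the difference had 8. Ighg2c in Tyk2DIEC turned to -0.15 in limma voom and -0.16 in the summed fit. The Ighg1 share in Tyk2KO turned to 0.11 as a log2 ratio. Over the 5 member heavy-chain genes the Igha share gap in Tyk2DIEC was -6.01 points (exact permutation p = 0.0364). The Igkv gap in Tyk2DIEC was 2.92 segments when thinned (exact permutation p = 0.0121, with the alike Tyk2fl libraries counted as separate). By the Shannon number it was -2.12, and the Ighv gap was -1.64. The cause was not tested.

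The replicate numbers do not pair libraries. With the number as a block, 0 members were called in any comparison, the lists had 7, 2 and 3 calls, Ighg2c in Tyk2DIEC was at -0.41, and calls over all genes went from 15 higher and 195 lower to 7 and 148 in Tyk2KO and from 262 and 289 to 104 and 125 in Tyk2DIEC. Tyk2DIEC replicate 3 held only 46 Igkv counts, which limits the precision of its segment shares.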
